A study of Mus musculus with 42 samples.

Results

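The step from ZT16 to ZT20 in the lungs of sleep deficient mice was described from 6 RNA sequencing libraries, 3 taken at ZT16 and 3 at ZT20. Genes entered when their mean over these 6 libraries reached 0.5 FPKM (fragments per kilobase of a gene's length, after scaling for library size), which 16429 of 54532 genes did. Just inside that limit lay Igkv5-48 at 0.5, Man2c1os at 0.5001 and AC126937.1 at 0.5002 FPKM, and just outside it Mir1929 and Gm11425 at 0.4998 and Slc9a7 at 0.4995. The 16429 genes held 99.7% of the reads.

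ZT counts hours from lights on, and ZT12 is lights off, so both times fall in the dark hours, when mice are mostly awake. At night the adrenal glands, fasting and feeding, body temperature and the circadian clock all act on the lung. Glucocorticoids bind a receptor that switches on genes for fuel sparing and for damping inflammation. PPAR alpha, a receptor for fatty acids, switches tissues from burning glucose to burning fat. The clock runs on the activators ARNTL, CLOCK and NPAS2, which switch on their own repressors of the PER and CRY families.

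The mice were C57BL/6J of wild-type genotype, and neither age nor sex is stated in the labels. The SD groups had been housed in SD cages for 20 h per day on 2 days, from clock hour 14 to clock hour 10, with lights on at clock hour 8. The Ctrl groups spent the same hours in home cages, and both had food and water freely. Lungs were taken every 4 h for 24 h, giving 7 times in each condition and 42 libraries in all. The labels do not say whether the ZT16 and ZT20 lungs came after the last cage hours or within a later cage period. The groups compared here were SD ZT16, SD ZT20, Ctrl ZT16 and Ctrl ZT20, with 3 libraries each, and the spread behind each p-value was estimated over all 14 groups. Libraries of 1 group are biological replicates per the labels, which do not say if each is 1 animal or a pool, so p-values measure only the spread between these libraries. The time of day and anything else that differed between the collections cannot be told apart. Whole lung was used, and a lower value can come from fewer cells of a type or from less RNA per cell, which cannot be told apart either.

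The 12 libraries of these groups held 25401666 to 27983552 recovered reads each. The within-group SD of the median gene was 0.0591 log2 units at SD ZT16 and 0.0678 at SD ZT20. It was wider in Ctrl, at 0.0855 at Ctrl ZT16 and 0.0849 at Ctrl ZT20. Replicate 2 of Ctrl ZT20 held 1.19% of its reads in mitochondrial genome transcripts, against 2.24% and 2.35% in replicates 1 and 3. The 3 Ctrl ZT16 libraries stood apart from the other 9 on the first principal component, to which 55.9% of the variance fell. Plasma cell and mucous airway transcripts varied widely over the day in Ctrl lungs. The immunoglobulin joining chain gene Jchain stood at 440, 486 and 429 FPKM in the Ctrl ZT16 libraries and at 4.70, 5.07 and 5.06 in the Ctrl ZT20 libraries. Its Ctrl means were 4.73 FPKM at ZT0, 12.5 at ZT4, 223 at ZT8, 244 at ZT12, 452 at ZT16, 4.94 at ZT20 and 60.6 at ZT24. The level at Ctrl ZT20 was thus near that at Ctrl ZT0, and Ctrl ZT16 had the highest mean. In the SD libraries Jchain stood at 3.80, 3.29 and 3.73 at ZT16 and at 5.99, 5.26 and 4.96 at ZT20. Defining lung markers were present in the 6 SD libraries, with the surfactant protein gene Sftpc between 20240 and 22879 FPKM, the type 1 alveolar gene Ager between 1100 and 1288, and the endothelial gene Pecam1 between 104 and 124.

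Of the 16429 genes, 9229 (56.2%) differed between SD ZT20 and SD ZT16 by limma on log2(FPKM + 1), at a Benjamini-Hochberg adjusted p under 0.05. Of these, 5034 were higher at ZT20 (30.6% of genes tested) and 4195 were lower (25.5%). The median change over all genes was 0.02 on the log2 scale, and single genes ran from -2.53 to 3.57. Scaling each library to the same total of reads turned the split round, with 3327 genes higher and 5951 lower. Higher calls then made up 35.9% of all calls, against 54.5% under the authors' scaling. The 3 values at ZT20 did not overlap the 3 at ZT16 in 10300 genes (62.7%). Changes of at least 2-fold were much rarer: 291 genes (1.77%) rose and 168 (1.02%) fell by that much. A fold here is 2 to the power of the difference in log2(FPKM + 1), so it understates the change of genes near 0.

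**Figure D1:**
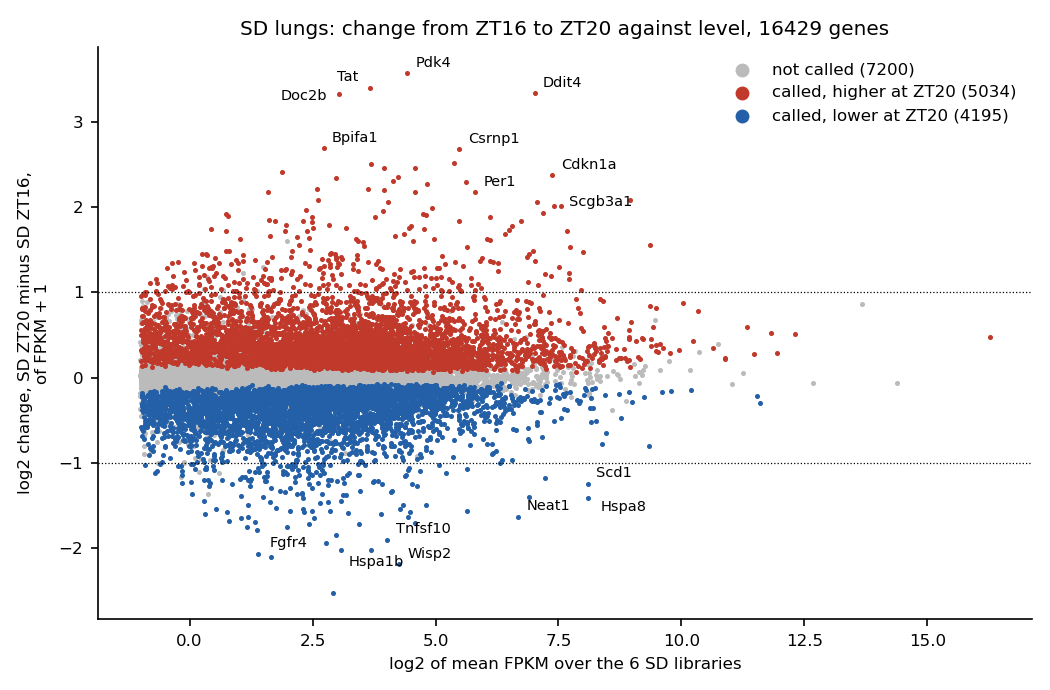
Change from SD ZT16 to SD ZT20 in log2(FPKM + 1) on the vertical axis against the log2 of the mean FPKM of the 6 libraries on the horizontal axis, 1 point per gene, with dotted lines at -1 and 1. The 5034 genes called higher and the 4195 called lower mostly lie between the dotted lines, and Pdk4, Tat and Ddit4 lie highest.

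Genes of fuel use and of the glucocorticoid response were among the largest rises. Pdk4, a kinase that shuts pyruvate out of the citric acid cycle, stood at 2.25, 2.57 and 2.61 FPKM at ZT16 and at 41.3, 40.5 and 39.0 at ZT20. All 3 ZT20 libraries lay far above all 3 ZT16 libraries. The change was 3.57 on the log2 scale (SE 0.0667, 11.9-fold, adjusted p = 1.28e-28), the largest of all genes tested. Pdk4 is annotated on chromosome 6 from 5483351 to 5496309 of mm10, on the minus strand. Tat, tyrosine aminotransferase, an amino acid breakdown enzyme known as a glucocorticoid target in liver, went from 1.53, 1.19 and 1.40 FPKM to 22.5, 24.1 and 25.5, a change of 3.40 (SE 0.0724, adjusted p = 3.27e-27). Ddit4, an inhibitor of the growth kinase complex mTORC1, went from 23.4, 20.9 and 23.2 FPKM to 225, 232 and 252. Its groups did not overlap, and the change was 3.34 (SE 0.0820, adjusted p = 1.57e-25).

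Of the 26 genes tested from a list of glucocorticoid response genes, 25 rose and 1 fell. Their median change was 1.76, against 0.02 over all genes tested. Over all genes tested 30.6% rose and 25.5% fell, and the list counts below are to be read beside these shares. With equal total reads 3327 of the 16429 genes rose and 5951 fell, and list counts under that setting stand beside these. The glucocorticoid receptor co-chaperone gene Fkbp5 stood at 6.73, 7.05 and 6.51 FPKM at ZT16 and at 41.0, 41.96 and 41.4 at ZT20. The groups were far apart, and the change was 2.45 on the log2 scale (5.47-fold, adjusted p = 5.22e-29). Sgk1, a kinase that keeps sodium channels at the cell surface, went from 40.3, 41.7 and 41.0 FPKM to 142, 141 and 131, a change of 1.73 (SE 0.0393, adjusted p = 1.85e-26). All ZT20 values of Sgk1 were above all ZT16 values. The single member that fell was Gpx3, a secreted glutathione peroxidase, from 839, 835 and 792 FPKM to 725, 738 and 728. Its change was -0.17 (adjusted p = 0.00303). Nr3c1, the glucocorticoid receptor gene, named here after its values were seen, was not called (-0.09, adjusted p = 0.0638). Nr3c2, the mineralocorticoid receptor gene, rose by 0.20 (adjusted p = 0.00766, and 0.134 with equal total reads). Hsd11b1, which makes active glucocorticoid inside cells, changed by -0.14 (adjusted p = 0.0335), and its adjusted p lay between 0.0628 and 0.152 in 4 of the 6 fits that left out 1 library of the step. The list was drawn up with earlier results of these data known, so its direction is a description.

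Promoter sequences are shown for the 2 members of that list that held a match to a glucocorticoid response element, written AGAACANNNTGT and searched on both strands. RefSeq gives the 250 bases before each start listed for a gene on GRCm38.p6, and a gene can have several. The table lists 3 windows for Fam107a and 6 for Sgk1, of which 1 with a match is shown for each. Capitals mark the match. Fam107a lies on the minus strand (window chr14:8309780-8310029) and Sgk1 on the plus strand (window chr10:21993640-21993889). Fam107a is annotated from 8296274 to 8318023, so its window lies inside the gene, before an internal start.
Fam107a: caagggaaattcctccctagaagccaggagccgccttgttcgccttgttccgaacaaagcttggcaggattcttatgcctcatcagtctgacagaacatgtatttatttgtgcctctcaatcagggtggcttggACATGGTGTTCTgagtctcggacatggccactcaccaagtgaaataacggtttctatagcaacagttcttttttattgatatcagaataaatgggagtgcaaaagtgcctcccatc
Sgk1: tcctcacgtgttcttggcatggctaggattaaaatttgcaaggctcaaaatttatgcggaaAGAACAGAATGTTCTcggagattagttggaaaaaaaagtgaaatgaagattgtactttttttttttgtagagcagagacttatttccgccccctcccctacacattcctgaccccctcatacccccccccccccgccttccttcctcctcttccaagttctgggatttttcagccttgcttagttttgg
In Fam107a the match begins 116 bases before that internal start. In Sgk1 an overlapping pair of matches begins 189 and 186 bases before the start listed for its window. Of the 23 list members with a window in the RefSeq table, 2 held the motif (8.70%), against 0.429% of 27025 genes. Fam107a, an actin-binding stress gene chosen for this display after its values were seen, went from 9.003, 8.98 and 9.21 FPKM at ZT16 to 48.4, 47.7 and 46.7 at ZT20. The change was 2.27 (SE 0.0772, adjusted p = 8.71e-22), with no overlap between the groups.

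**Figure D2:**
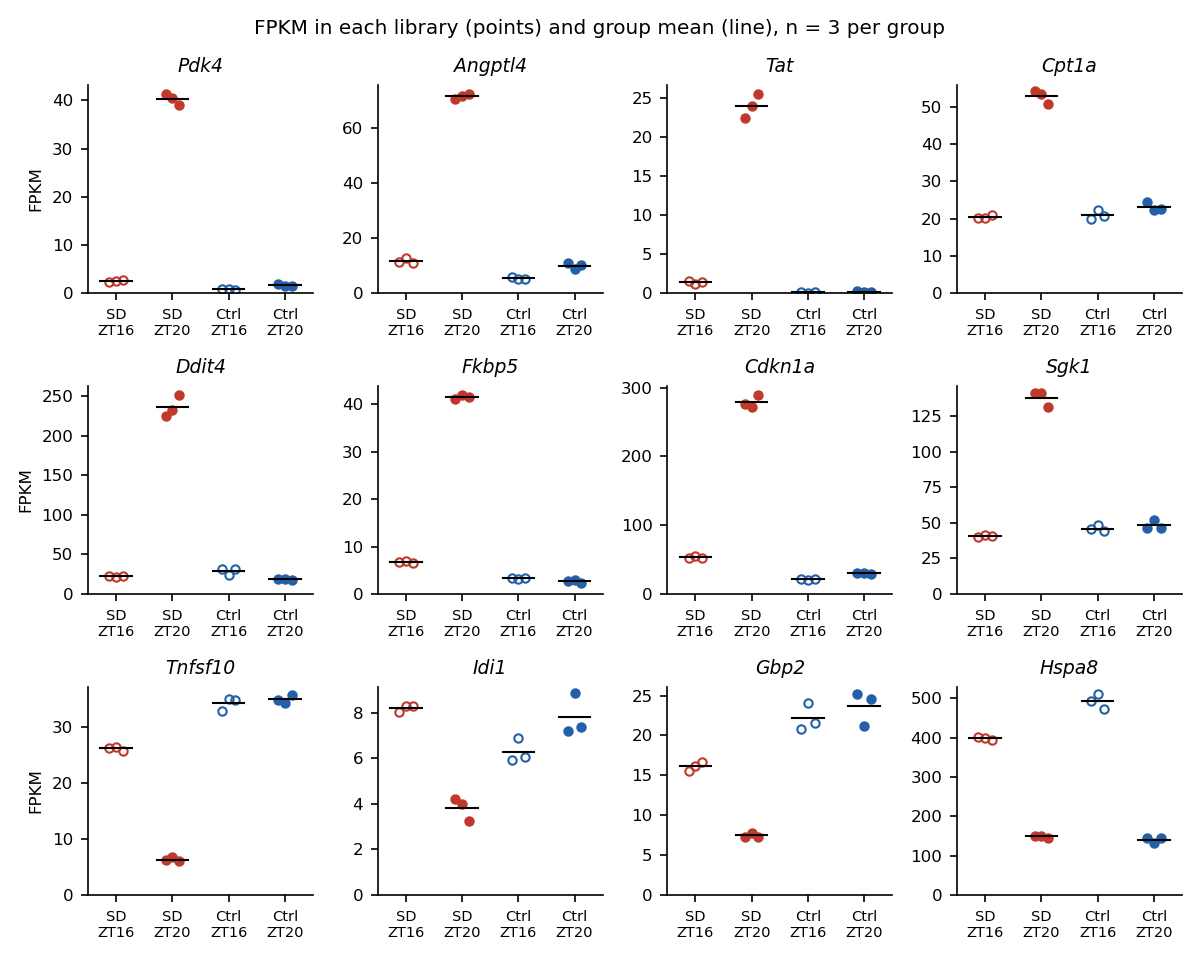
FPKM of 12 genes in each library of the 4 groups compared, 1 point per library and a line at the mean of 3, with the linear vertical axis of each panel starting at 0. In Pdk4, Angptl4, Ddit4 and Fkbp5 the 3 SD ZT20 libraries stand alone at the top, and in Tnfsf10 they stand alone at the bottom.

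Other genes among the largest rises had varied roles. Cdkn1a, the p21 inhibitor of cyclin-dependent kinases, went from 52.6, 55.4 and 51.7 FPKM to 277, 272 and 290, a 5.17-fold rise (adjusted p = 2.25e-28). Doc2b, a calcium sensor of vesicle release, went from 0.568, 0.601 and 0.822 FPKM to 15.7, 15.7 and 15.7. The groups of both genes were far apart. Bpifa1, an antimicrobial protein secreted in the airways, went from 1.31, 0.935 and 0.891 FPKM to 11.8, 13.1 and 11.7. Csrnp1, a nuclear protein gene, went from 11.2, 11.6 and 11.3 FPKM to 75.3, 78.8 and 81.0, but it overlaps Cx3cr1 on the same strand, so reads of the shared stretch are uncertain. Krt87, a hair keratin gene, changed by 2.41, and Mir7211 by 2.50 (SE 0.581, adjusted p = 0.000489). Mir7211 lies within Tmcc3 on the opposite strand, and since strand handling is not given, its reads cannot be separated from those of Tmcc3.

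Genes of the PPAR alpha fuel switch rose together. Of 19 tested, 15 rose and 2 fell, with a median change of 0.72. Pdk4 and Angptl4 are also on the glucocorticoid list, and Cpt1a is also on the list of fatty acid oxidation, so these lists are not separate. Angptl4, an inhibitor of lipoprotein lipase, went from 11.4, 12.6 and 11.1 FPKM to 70.5, 71.6 and 72.4. All 3 ZT20 values of Angptl4 were above all ZT16 values, with a change of 2.52 (SE 0.0676, adjusted p = 1.73e-24). G0s2, an inhibitor of the fat-splitting lipase ATGL, went the other way, from 130, 121 and 121 FPKM to 59.7, 62.0 and 67.4. Its change was -0.97 (SE 0.0714, adjusted p = 3.97e-13). Pnpla2, the gene of ATGL itself, went from 72.9, 71.8 and 72.2 FPKM to 184, 187 and 195, a rise of 1.37 (adjusted p = 8.86e-22).

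Fatty acid oxidation, which the series title links to sleep deficiency, showed a mixed picture with more rises than falls. Of 36 genes tested, 22 rose, 5 fell and 9 were not called, with a median of 0.28. The counts were 19 and 8 with equal total reads. Cpt1a, the gate for fatty acids into mitochondria, went from 20.3, 20.3 and 20.9 FPKM to 54.3, 53.5 and 50.7. Its groups did not overlap, and the change was 1.33 (SE 0.0366, adjusted p = 3.54e-24). Eci2, an enoyl-CoA isomerase for unsaturated fatty acids, went from 9.08, 7.89 and 8.17 FPKM to 22.004, 20.9 and 21.988, and Slc22a5, the carnitine importer, from 12.9, 12.9 and 12.7 to 28.6, 29.0 and 29.5. Both stood clear of their ZT16 values. The largest falls were smaller, at -0.34 in Acsl5 (adjusted p = 2.66e-09), -0.34 in Abcd2 (adjusted p = 0.000228) and -0.19 in Crot (adjusted p = 0.00956). The adjusted p of Crot was 0.107 without SD ZT16 replicate 3 and 0.0557 without SD ZT20 replicate 3.

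Most of the adipocyte markers tested rose with these lipid genes. Of 15 on the list 10 were tested, of which 7 rose and 3 fell, and the list shares 2 members with the PPAR alpha list. The summed level of the 15 was 148 to 156 FPKM at ZT16 and 311 to 314 at ZT20. Much of the rise of this sum came from 1 member, Pnpla2, whose values are given above. Its defining marker Adipoq, the fat hormone adiponectin, was near 0, at 0.407, 0.303 and 0.551 FPKM at ZT16 and 0.0308, 0.191 and 0.263 at ZT20, below the level needed for a test.

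Lipid synthesis moved the other way. Of 24 cholesterol synthesis genes 21 fell and 3 rose, with a median of -0.50. Idi1, an isomerase of the isoprenoid branch, went from 8.03, 8.30 and 8.31 FPKM to 4.22, 4.02 and 3.27, and Cyp51, a lanosterol demethylase, from 11.2, 11.3 and 11.01 to 5.55, 5.39 and 5.27. In both genes every ZT20 value was below every ZT16 value. Pmvk, phosphomevalonate kinase of the same pathway, rose from 45.5, 45.6 and 47.5 FPKM to 80.7, 80.7 and 85.9. Of 15 fatty acid synthesis genes 10 fell and 5 rose, with a median of -0.22. Scd1, the desaturase that makes monounsaturated fatty acids, went from 380, 390 and 389 FPKM to 164, 162 and 162. The groups of Scd1 were far apart, and the change was -1.24 (SE 0.0252, adjusted p = 9.44e-28). Elovl1, an elongase of very long fatty acids, fell from 99.3, 98.1 and 96.3 FPKM to 53.2, 53.3 and 53.4. Srebf2, which encodes the factor that drives cholesterol synthesis, rose by 0.12 (adjusted p = 0.0157). With equal total reads its change was -0.0074 (adjusted p = 0.885), and without SD ZT16 replicate 2 its adjusted p was 0.0594.

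The promoter of Hmgcs1, which makes the precursor of mevalonate, is shown because it alone of 17 cholesterol synthesis genes with a window held the sterol response element written TCACNCCAC (5.88%, against 1.22% of all genes). The gene was chosen for display after its values were seen. Its window is chr13:119690101-119690350 of GRCm38.p6, plus strand, from RefSeq, with the match in capitals, 137 bases before the start.
Hmgcs1: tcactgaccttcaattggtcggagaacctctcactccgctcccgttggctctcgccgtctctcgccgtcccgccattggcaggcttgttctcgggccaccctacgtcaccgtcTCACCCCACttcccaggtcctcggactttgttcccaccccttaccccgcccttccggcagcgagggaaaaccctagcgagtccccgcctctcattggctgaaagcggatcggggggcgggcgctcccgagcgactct
Hmgcs1 went from 20.2, 21.3 and 19.7 FPKM to 13.3, 12.9 and 13.4, a change of -0.59 (SE 0.0612, adjusted p = 9.14e-10), with all ZT20 values below all ZT16 values.

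In the clock, the activators rose and the repressors split. All 3 activators were called higher, 2 of them also with equal total reads: Arntl went from 3.60, 3.49 and 3.05 FPKM to 6.56, 6.26 and 6.17, a change of 0.74 (SE 0.0580, adjusted p = 1.5e-12). Npas2 rose by 0.96 (adjusted p = 8.64e-13) and Clock by 0.22 (adjusted p = 0.000661, and 0.0908 with equal total reads). Per2, a repressor, went from 28.1, 27.1 and 29.4 FPKM to 16.6, 15.7 and 15.9, a change of -0.78 (SE 0.0581, adjusted p = 5.66e-13). The groups of Arntl and of Per2 did not overlap. Per3, a repressor too, changed by -0.65 (adjusted p = 3.22e-13) and Ciart by -0.28 (adjusted p = 0.00234), whereas Cry1 rose by 0.25 (adjusted p = 0.00031, and 0.0611 with equal total reads) and Cry2 by 0.89 (adjusted p = 7.07e-19). Per1, the repressor gene that also answers to glucocorticoids, went against Per2 and Per3. It stood at 19.5, 19.4 and 20.0 FPKM at ZT16 and at 88.7, 90.5 and 97.2 at ZT20, and its change was 2.17 (SE 0.0509, adjusted p = 4e-26).

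The Per1 promoter is shown because it carries an E-box, CACGTG, the motif bound by the clock activators. Its window is chr11:69098699-69098948 of GRCm38.p6, plus strand, from RefSeq, with the E-box in capitals, 166 bases before the start.
Per1: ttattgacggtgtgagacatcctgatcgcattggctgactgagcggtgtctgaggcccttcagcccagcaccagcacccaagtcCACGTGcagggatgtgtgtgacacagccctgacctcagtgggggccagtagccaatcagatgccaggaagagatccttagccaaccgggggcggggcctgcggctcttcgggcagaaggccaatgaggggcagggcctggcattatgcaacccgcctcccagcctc
Of 5 clock repressor genes with a window 3 held an E-box (60%), against 6.86% of all genes and 9.44% of those tested here, and these were Ciart, Cry1 and Per1.

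Output factors of the clock differed among themselves. Dbp, a factor that binds D-boxes, went from 6.06, 6.55 and 5.86 FPKM to 2.38, 2.59 and 2.56, a change of -1.03 (SE 0.0690, adjusted p = 4.13e-14). Nfil3, which opposes Dbp at the same motif, went from 9.20, 10.2 and 10.8 FPKM to 18.8, 20.8 and 21.0, a change of 0.94 (SE 0.0839, adjusted p = 3.59e-11). The groups of Dbp and of Nfil3 did not overlap. Of the relatives of Dbp, Tef rose by 0.31 (adjusted p = 2.75e-09) and Hlf changed by -0.60 (adjusted p = 5.13e-09). The clock-controlled protease gene Usp2 rose by 0.58 (adjusted p = 2.65e-09). The repressor gene Bhlhe40 changed by -0.51 (adjusted p = 6.42e-14), and Bhlhe41 was not called (-0.03, adjusted p = 0.747).

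Among the nuclear receptors of the clock, Nr1d1, which encodes the repressor REV-ERB alpha, went from 5.87, 6.50 and 5.61 FPKM to 9.77, 9.21 and 9.96, a change of 0.61 (SE 0.0540, adjusted p = 3.16e-11). Its relative Nr1d2 went from 11.6, 11.7 and 11.7 FPKM to 10.4, 9.97 and 10.4 (-0.17, adjusted p = 0.0199). The adjusted p of Nr1d2 was 0.0685 without SD ZT20 replicate 2. The activator gene Rora rose by 0.43 (adjusted p = 5.87e-08). Nr1d1 overlaps Thra and Dbp overlaps Sphk2 on the opposite strand, and Per3 overlaps Camta1 on the same strand. Reads of those shared stretches are uncertain.

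**Figure D3:**
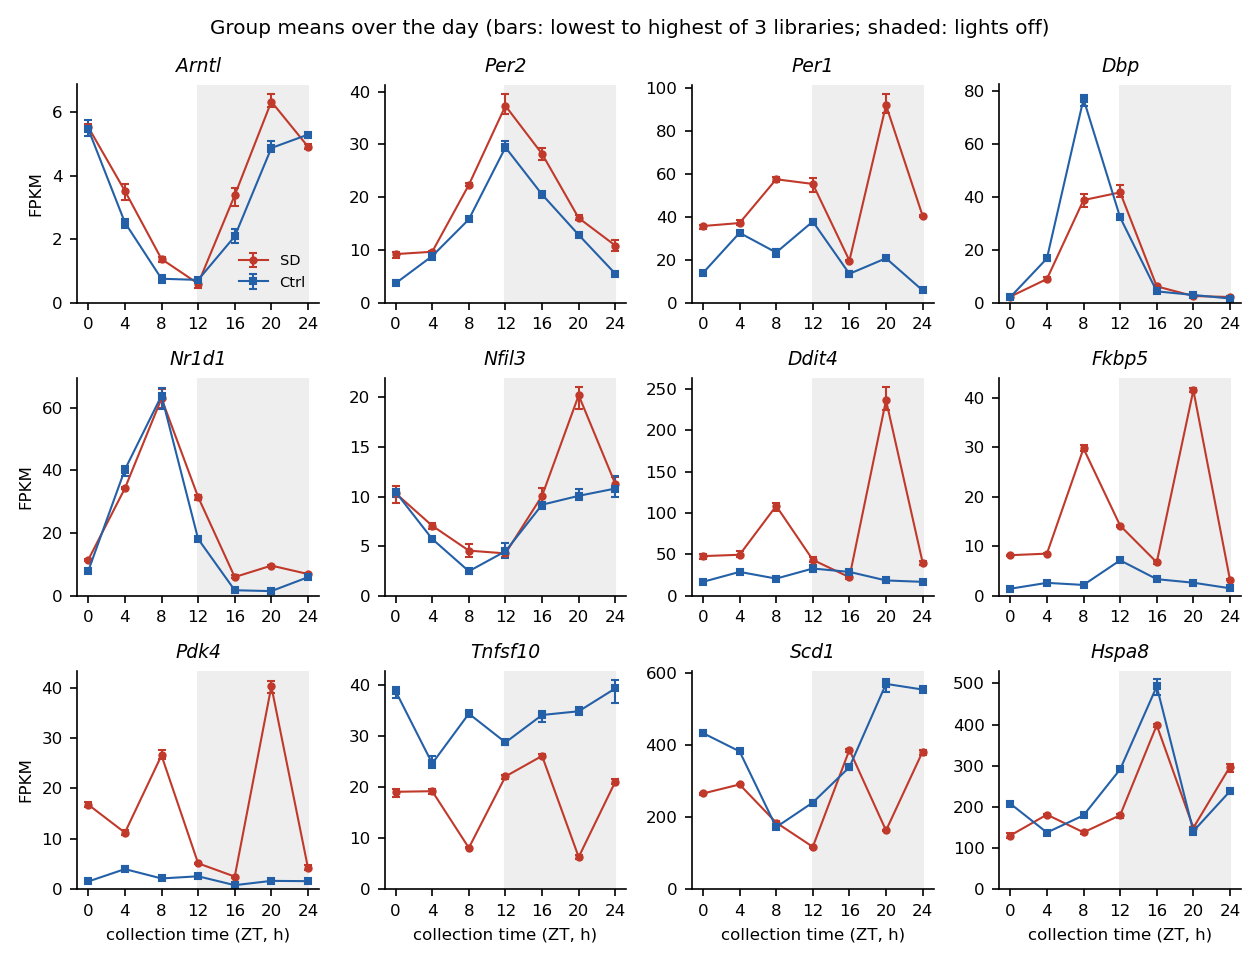
Mean FPKM of 12 genes at the 7 times in SD and Ctrl lungs, with bars from the lowest to the highest of 3 libraries, time in hours from lights on, and the dark hours shaded. Ddit4, Fkbp5 and Pdk4 in SD lungs have their highest mean at ZT20 with a smaller one at ZT8, and Per2 has passed its ZT12 maximum.

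Over the day in SD lungs, the mean of Pdk4 was 16.8 FPKM at ZT0, 11.2 at ZT4, 26.5 at ZT8, 5.12 at ZT12, 2.48 at ZT16, 40.2 at ZT20 and 4.23 at ZT24. ZT16 was thus the lowest and ZT20 the highest mean of Pdk4, and 4 h later it was low again. In Fkbp5 the means in the same order were 8.20, 8.52, 29.7, 14.2, 6.76, 41.5 and 3.25 FPKM, with the same maximum. Of the 291 genes that rose at least 2-fold, 262 (90.0%) had their highest SD mean at ZT20, and 244 (83.8%) their highest of all 14 groups. Of all genes tested 31.3% and 24.2% did so. Of the 168 that fell at least 2-fold, 140 (83.3%) had their lowest SD mean at ZT20, against 23.7% of all genes tested. These shares use the libraries that chose the genes, so they describe the profile and test nothing.

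Heat shock chaperones fell. Of 24 tested, 20 fell and 2 rose, with a median of -0.60. Hspa8, the constitutive HSP70, went from 401, 400 and 395 FPKM to 151, 151 and 145, a change of -1.41 (SE 0.0330, adjusted p = 3.87e-26). Hsph1, its nucleotide exchange partner, went from 16.5, 18.0 and 17.5 FPKM to 4.34, 4.82 and 4.53. In both genes the groups were far apart. Hspa1b, an inducible HSP70, went from 13.6, 12.7 and 15.9 FPKM to 2.54, 2.87 and 2.73, but it is nearly identical to Hspa1a, so the share of reads between the pair is uncertain. Hspb8 (0.66, adjusted p = 1.75e-14) and Hspa9 (0.34, adjusted p = 6.82e-10) were the members that rose.

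Hspd1 and Hspe1, which encode the mitochondrial chaperonin and its lid, lie head to head and share the stretch between them. It is shown because these were the 2 of 18 chaperone genes with a window that held a heat shock element, written GAANNTTCNNGAA or TTCNNGAANNTTC (11.1%, against 0.514% of all genes). The matched bases of the 2 genes are the same stretch read on opposite strands, so the share counts that stretch for both genes. The pair was chosen for display after its values were seen. The window of Hspe1 is chr1:55087898-55088147 of GRCm38.p6, plus strand, from RefSeq, and capitals mark an overlapping pair of matches that begin 89 and 84 bases before the start.
Hspe1: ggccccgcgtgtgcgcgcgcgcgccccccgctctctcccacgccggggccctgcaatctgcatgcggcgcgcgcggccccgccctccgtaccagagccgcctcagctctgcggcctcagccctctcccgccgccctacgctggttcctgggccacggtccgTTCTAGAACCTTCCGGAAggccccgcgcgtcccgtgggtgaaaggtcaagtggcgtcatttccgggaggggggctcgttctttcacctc
Hspd1 went from 39.6, 41.8 and 42.5 FPKM to 25.8, 25.8 and 25.6 (-0.66, adjusted p = 4.14e-12). Hspe1 went from 35.3, 38.1 and 35.1 FPKM to 24.9, 24.0 and 25.0 (-0.54, adjusted p = 4.29e-07). All ZT20 values of either gene were below its ZT16 values.

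RNA-binding proteins known to rise in the cold went up while the chaperones fell. Cirbp stood at 31.6, 31.1 and 32.0 FPKM at ZT16 and at 99.5, 95.9 and 104 at ZT20, a change of 1.63 (SE 0.0599, adjusted p = 7.34e-21). Rbm3 went from 24.3, 24.6 and 24.5 FPKM to 44.7, 43.7 and 43.5, a change of 0.82 (SE 0.0331, adjusted p = 9.37e-20). Neither gene overlapped between the groups. Of the 5 genes of that list 3 rose and none fell.

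Other stress lists were mixed. Over all genes tested 30.6% rose and 25.5% fell, and with equal total reads 3327 of 16429 genes rose and 5951 fell. Of 26 genes of endoplasmic reticulum stress and folding, 15 fell and 7 rose, or 16 and 4 with equal total reads. Herpud1, of the pathway that clears misfolded proteins, rose from 90.0, 90.5 and 87.1 FPKM to 214, 206 and 204, whereas the glutathione-degrading enzyme gene Chac1 changed by -1.29 (adjusted p = 1.27e-14) and the co-chaperone gene Sdf2l1 by -0.98 (adjusted p = 2.26e-10). Of 27 immediate early genes 18 rose and 5 fell. Klf4 went from 62.3, 60.8 and 66.4 FPKM to 169, 170 and 170 and Nr4a1 from 40.5, 38.9 and 38.5 to 82.0, 82.1 and 82.8, while Egr1 fell from 37.2, 36.2 and 38.0 to 22.5, 21.9 and 23.1. Among 22 antioxidant genes of the NRF2 pathway 16 rose and 2 fell, led by the quinone reductase gene Nqo1 (1.33, adjusted p = 1.55e-11). Nfe2l2, which encodes NRF2, fell by 0.43 (adjusted p = 1.74e-12). Among 16 genes of the DNA damage response there were 9 rises and 3 falls, or 8 and 5 with equal total reads. Cdkn1a and Ddit4 are on this list and on the glucocorticoid list. Trp53inp1, a p53 target, went from 16.4, 16.3 and 15.6 FPKM to 86.0, 83.0 and 78.6, but the p53 targets Phlda3 (-0.62, adjusted p = 5.24e-08) and Eda2r (-0.49, adjusted p = 3.76e-08) fell. The linker histone gene Hist1h1c went from 68.9, 67.8 and 64.7 FPKM to 277, 277 and 269, with no overlap, and it was the 1 of 17 histone genes that rose, against 6 that fell.

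Interferon response genes were lower at ZT20. Of 28 tested, 24 fell, none rose and 4 were not called, with a median of -0.41. Gbp2, a guanylate-binding protein of antimicrobial defence, went from 15.6, 16.2 and 16.7 FPKM to 7.31, 7.76 and 7.32, a change of -1.02 (SE 0.0561, adjusted p = 2.81e-16). Ifit3b, an antiviral protein gene, went from 6.00, 6.14 and 6.94 FPKM to 2.77, 2.86 and 2.62, and Ifi47, a GTPase gene, changed by -0.89 (adjusted p = 7.93e-13). The groups of Gbp2 and Ifit3b did not overlap. A further fall was in Tnfsf10, which encodes the death ligand TRAIL. It went from 26.3, 26.4 and 25.7 FPKM to 6.16, 6.70 and 5.99, a change of -1.90 (SE 0.0395, adjusted p = 1.88e-27).

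The promoter of Gbp3, a relative of Gbp2, is shown as 1 of the 12 interferon genes, of 19 with a window, that held the interferon response element TTTCNNTTTC (63.2%, against 3.46% of all genes). It was chosen after its values were seen. Its window is chr3:142559794-142560043 of GRCm38.p6, plus strand, from RefSeq, and capitals mark an overlapping pair of matches beginning 45 and 39 bases before the start.
Gbp3: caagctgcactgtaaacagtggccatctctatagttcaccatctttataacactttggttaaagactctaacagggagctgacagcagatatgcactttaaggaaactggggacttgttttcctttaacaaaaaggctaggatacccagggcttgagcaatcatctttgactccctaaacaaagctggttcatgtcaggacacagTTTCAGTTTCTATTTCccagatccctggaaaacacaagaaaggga
Gbp3 went from 6.70, 6.87 and 7.12 FPKM to 4.07, 3.56 and 3.77, a change of -0.72 (SE 0.0553, adjusted p = 1.06e-12). Its ZT20 values all lay below its ZT16 values.

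Chemokine and cytokine genes fell more often than they rose, with 18 of 27 lower and 3 higher. Il33, an alarmin of the lung, went from 29.3, 29.7 and 28.5 FPKM to 10.1, 9.28 and 8.72, a change of -1.54 (SE 0.0508, adjusted p = 3.9e-22). Csf2, which encodes the growth factor GM-CSF, went from 4.64, 3.99 and 3.26 FPKM to 0.532, 0.495 and 0.756, and Csf1, the macrophage growth factor gene, from 15.96, 16.2 and 16.7 to 5.86, 5.87 and 5.92. The 3 genes did not overlap between the groups. Cxcl2, a neutrophil attractant, rose by 0.45 (adjusted p = 0.00183).

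Markers of blood and immune cells moved in several directions. For comparison, 30.6% of all genes tested rose and 25.5% fell. Of 20 neutrophil markers 15 rose and 4 fell, and their summed level was 1007 to 1131 FPKM at ZT16 and 1467 to 1581 at ZT20. The granule gene Ngp rose by 1.76 (adjusted p = 7.31e-16) and the decoy receptor gene Il1r2 by 1.55 (adjusted p = 2.2e-15). The defining marker Csf3r, the G-CSF receptor gene, went the other way, from 43.7, 42.4 and 41.1 FPKM to 31.5, 32.0 and 29.6 (-0.44, adjusted p = 2.18e-10). Of 13 monocyte markers 9 fell and 3 rose. Ccr2, the chemokine receptor gene that defines inflammatory monocytes, went from 5.56, 5.81 and 5.37 FPKM to 1.75, 1.59 and 1.50, a change of -1.33 (SE 0.0563, adjusted p = 2.85e-19). Of 10 dendritic cell markers 7 fell and none rose, led by Cd209a (-0.82, adjusted p = 1.29e-07). Of 18 T cell markers 11 rose and none fell, or 7 and 1 with equal total reads. Their summed level was 41.7 to 42.3 FPKM at ZT16 and 53.8 to 56.0 at ZT20, while the defining marker Cd3e was not called (0.09, adjusted p = 0.313). Marco, a scavenger receptor gene of alveolar macrophages, rose from 14.8, 13.7 and 12.3 FPKM to 23.5, 24.2 and 25.6. The part of these cell markers in the interferon and cytokine results was not tested.

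More matrix and stromal genes fell than rose. Of 29 extracellular matrix genes 19 fell and 6 rose, or 19 and 3 with equal total reads. Their summed level did not separate the times, at 1874 to 1908 FPKM at ZT16 and 1865 to 1931 at ZT20. Col6a3, a chain of collagen VI, went from 9.72, 9.63 and 9.72 FPKM to 2.79, 2.71 and 3.08, a change of -1.47 (SE 0.0334, adjusted p = 1.79e-26). Serpinh1, the collagen chaperone gene, went from 174, 173 and 173 FPKM to 62.8, 66.2 and 66.0, and both genes stood clear of their ZT16 values. Lox, which crosslinks collagen, rose against them, from 42.4, 43.4 and 42.7 FPKM to 115, 110 and 108 (1.35, adjusted p = 1.57e-20). Among the genes picked by size of change, the largest fall was in Wisp2, a secreted matrix-associated protein gene. It went from 30.7, 33.2 and 32.2 FPKM to 5.93, 6.42 and 6.43, a change of -2.19 (SE 0.0667, adjusted p = 5.03e-23). Of 15 fibroblast markers 10 fell and 2 rose, or 12 and 1 with equal total reads, and their summed level was 2589 to 2651 FPKM at ZT16 and 2268 to 2366 at ZT20. Of 13 smooth muscle and pericyte markers 8 fell and 1 rose. Of the defining markers, Pdgfra changed by -0.20 (adjusted p = 6.55e-06) and Myh11 was not called (0.12, adjusted p = 0.0809). The part of these markers in the matrix result was not tested. Tcf21, a transcription factor of lung fibroblasts, went from 32.6, 34.9 and 34.6 FPKM to 10.6, 10.7 and 10.97.

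Vessel genes split. Of 22 endothelial markers 10 rose and 11 fell, both above the shares over all genes tested (30.6% higher and 25.5% lower). Their summed level was 2261 to 2293 FPKM at ZT16 and 2574 to 2662 at ZT20. Lyve1, a hyaluronan receptor of lymphatic endothelium, went from 129, 129 and 129 FPKM to 297, 289 and 279 (1.15, adjusted p = 4.14e-23). Calcrl, the adrenomedullin receptor gene, went from 208, 207 and 205 FPKM to 96.7, 92.7 and 83.4 (-1.18, adjusted p = 1.22e-16). Lyve1 was higher and Calcrl lower in every ZT20 library. Apln, a peptide of growing vessels, fell from 8.02, 8.00 and 7.91 FPKM to 1.87, 2.18 and 2.01, Gja5, the connexin 40 gene of arteries, from 6.58, 6.69 and 6.53 to 1.29, 1.19 and 1.28, and the factor gene Sox7 from 33.8, 32.3 and 33.7 to 10.5, 9.97 and 9.49. All 3 were below their ZT16 values throughout.

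Some of the remaining large falls were in signalling genes. Fgfr4, a fibroblast growth factor receptor gene, went from 11.4, 11.4 and 11.3 FPKM to 2.06, 2.53 and 2.09, a change of -1.94 (SE 0.0623, adjusted p = 1.99e-22). Prickle1, of planar cell polarity, went from 36.2, 37.3 and 37.3 FPKM to 10.7, 10.6 and 10.7. The groups of both were far apart. Tnfrsf25, a death receptor gene, changed by -1.72, Apoa2, an apolipoprotein gene, by -1.75, and Slc27a3, a fatty acid transporter family gene, by -1.64. Mir7213 changed by -1.69 (adjusted p = 0.00594), but it lies inside Pdgfb on the same strand, so its reads cannot be separated from those of Pdgfb. Neat1, a nuclear long noncoding RNA, went from 155, 159 and 153 FPKM to 48.2, 48.6 and 52.1, with no overlap.

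Epithelial markers moved upward in the club cell list and both ways in the alveolar lists. Of 11 club cell markers 10 rose and none fell, with a median of 0.33. With equal total reads 9 rose and 1 fell. Scgb3a1, a secretoglobin of the airways, went from 73.9, 74.8 and 72.9 FPKM to 307, 306 and 289, a change of 2.01 (SE 0.0567, adjusted p = 6.37e-24). Scgb1a1, the main club cell product, changed by 0.48 (adjusted p = 0.000309), and with no filter on low values its adjusted p was 1. Of 17 ciliated cell markers 10 rose and 2 fell, or 4 and 3 with equal total reads. Their summed level did not separate the times, at 437 to 459 FPKM at ZT16 and 434 to 463 at ZT20. The defining ciliated marker Foxj1 was not called, but with equal total reads it changed by -0.27 (adjusted p = 0.00192). Of 14 alveolar type 2 markers 2 rose and 6 fell, and Sftpc was not called (-0.06, adjusted p = 0.477). The counts were 2 and 10 with equal total reads and 5 and 6 with array weights. Sftpc changed by -0.19 (adjusted p = 0.00828) with equal total reads. Of 12 alveolar type 1 markers 4 rose and 4 fell, shares near those over all genes tested (30.6% higher and 25.5% lower). With equal total reads the counts were 4 and 6. Ager was not called (0.09, adjusted p = 0.325). Vegfa, the vascular growth factor of type 1 cells, went from 340, 330 and 342 FPKM to 230, 230 and 246 (-0.52, adjusted p = 2.95e-14). Of 13 genes of epithelial fluid clearance 8 rose and 4 fell. Atp1b1, a subunit of the sodium pump, went from 158, 161 and 162 FPKM to 307, 309 and 300, whereas Aqp5, the water channel of type 1 cells, fell from 160, 156 and 155 to 106, 110 and 112. Neither gene overlapped between the groups.

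Genes of translation and respiration were counted next. Of 80 cytosolic ribosomal protein genes 52 rose and none fell, with a median of 0.23, or 27 and 1 with equal total reads. Of 13 transcripts of the mitochondrial genome 8 rose and none fell, and mt-Atp6, of the ATP synthase, changed by 1.40 (adjusted p = 0.00209). Of 81 nuclear genes of the respiratory chain 25 rose and 6 fell, a share of rises near that over all genes (30.6%). With equal total reads, which lowered the rises over all genes as well, 8 rose and 21 fell.

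**Figure D4:**
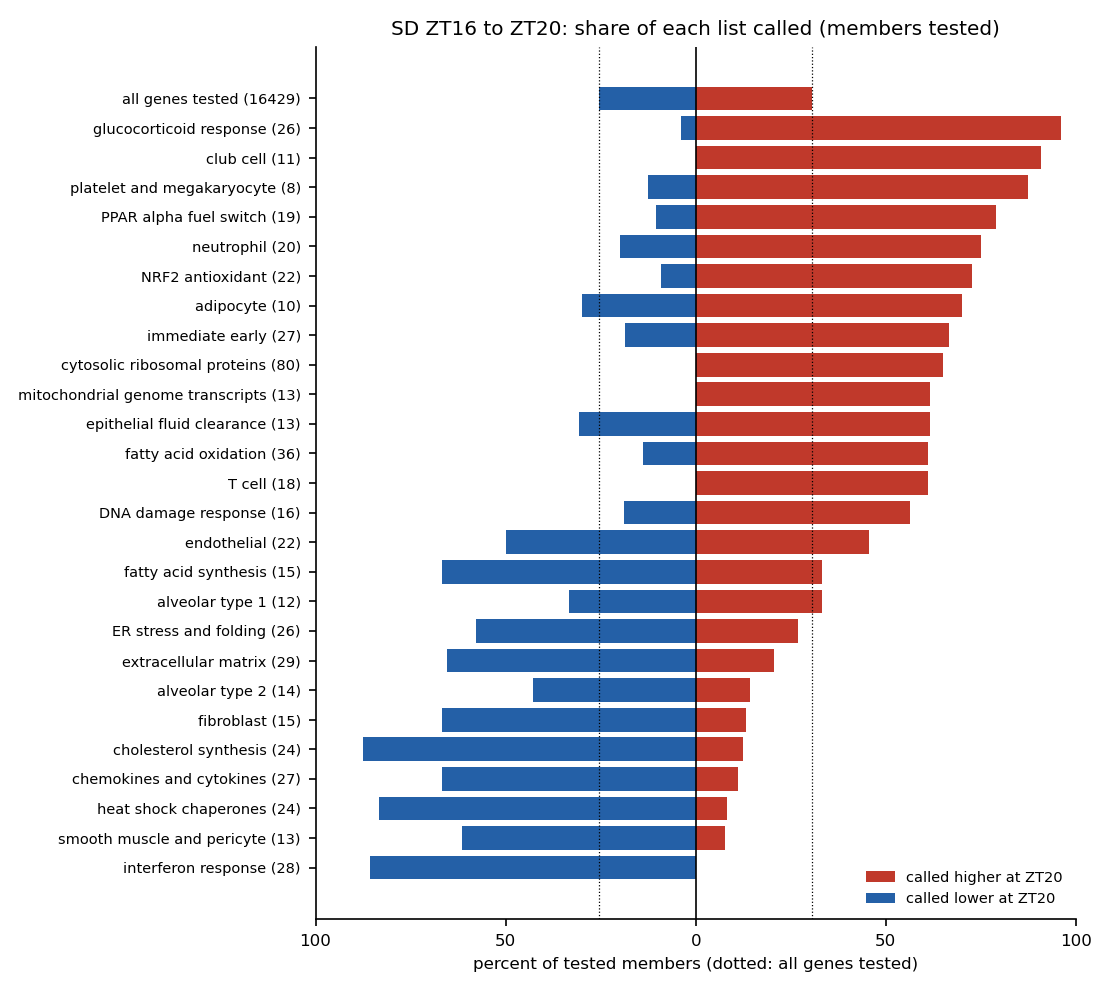
Percent of the tested members of 26 gene lists called higher (to the right) and lower (to the left) at SD ZT20 against SD ZT16, with dotted lines at the shares over all genes tested, 30.6% and 25.5%. The glucocorticoid response list lies farthest to the higher side, and the interferon, cholesterol synthesis and heat shock lists lie on the lower side.

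The same hours in home cages gave a step with other counts. Of the 16429 genes 8660 (52.7%) differed between Ctrl ZT20 and Ctrl ZT16, with 4417 higher (26.9%) and 4243 lower (25.8%). At least 2-fold changes were fewer upward and more downward, with 116 genes higher (0.706%) and 418 lower (2.54%). The SD and Ctrl steps share no library, so their difference was tested in the same fit. It was called for 8782 genes (53.5%). In 4861 (29.6%) the SD change was the more positive and in 3921 (23.9%) the more negative. With equal total reads 37.4% of these differences were positive, against 55.4% under the authors' scaling. Both steps were called higher in 1833 genes and lower in 1360, and they were called in opposite directions in 1136 genes (SD higher) and 1107 genes (SD lower).

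Both Ctrl groups enter every one of these differences, and without either the Ctrl step has no value. In Ctrl 16 of 18 plasma cell markers and 7 of 8 mucous airway markers fell. The summed level of the plasma cell markers was 9635 to 10714 FPKM at Ctrl ZT16 and 430 to 466 at Ctrl ZT20, and in SD 344 to 349 and 380 to 397. Scgb3a1 stood at 1869, 2065 and 1814 FPKM in the Ctrl ZT16 libraries and at 86.5, 99.4 and 83.9 at Ctrl ZT20, so it fell there and rose in SD. The difference of the steps was 6.41 (adjusted p = 1.38e-33). Over the day its Ctrl means were 318 FPKM at ZT0, 1776 at ZT4, 4989 at ZT8 and 3580 at ZT12. They were 1916 at ZT16, 89.9 at ZT20 and 2023 at ZT24, with the lowest at ZT20. Reg3g, an antimicrobial lectin gene, stood at 135, 136 and 131 FPKM at Ctrl ZT16 and 0.663, 0.722 and 0.687 at Ctrl ZT20. In SD it went from 0.319, 0.108 and 0.274 to 2.20, 2.64 and 2.15. The Ctrl means of Reg3g were 3.26 FPKM at ZT0, 43.5 at ZT4, 1078 at ZT8, 777 at ZT12 and 325 at ZT24. The lowest Ctrl mean of Reg3g was at ZT20 too.

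**Figure D5:**
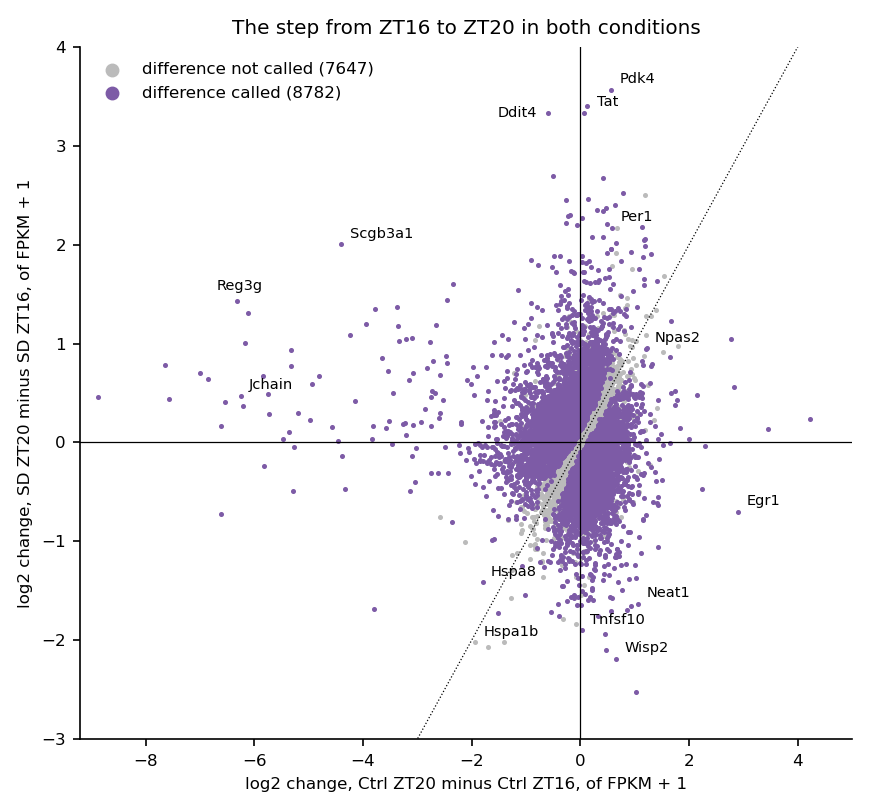
Change from ZT16 to ZT20 in Ctrl lungs on the horizontal axis and in SD lungs on the vertical axis, in log2(FPKM + 1), 1 point per gene, with a dotted line where both are equal. The 8782 genes whose steps differed spread away from the line, with Pdk4, Tat and Ddit4 high above it and Scgb3a1 far to the left.

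Of the 291 genes that rose at least 2-fold in SD lungs, 119 were called higher in Ctrl, 59 lower and 113 neither, and 19 rose by at least 2-fold there. Their median change was 1.28 in SD and 0.16 in Ctrl, and the difference of the steps was called positive in 254. These genes were chosen for their SD change, so the SD median and the count of differences are descriptions. Pdk4 stood at 0.877, 0.783 and 0.669 FPKM at Ctrl ZT16 and at 1.92, 1.55 and 1.41 at Ctrl ZT20, so all 6 Ctrl values lay below every SD ZT20 value. Its difference of steps was 3.01 (adjusted p = 1.42e-22). Ddit4 went from 31.2, 24.2 and 31.3 FPKM to 19.1, 19.1 and 17.7 in Ctrl, against its rise in SD, with a difference of 3.94 (adjusted p = 2.55e-23). Fkbp5 went from 3.45, 3.22 and 3.44 FPKM to 2.68, 2.94 and 2.34 in Ctrl (difference 2.71, adjusted p = 2.41e-26). Of the 26 glucocorticoid response genes the difference was positive in 23 and negative in 2, and their Ctrl median was 0.46. Over all genes tested the difference was positive in 29.6% and negative in 23.9%. List counts of the difference were not made with equal total reads, under which 37.4% of called differences were positive.

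Among lipid genes, the difference was positive in 16 of 19 PPAR alpha genes and negative in 1. Over all genes tested it was positive in 29.6% and negative in 23.9%. Fatty acid oxidation had near equal counts in both conditions, with 22 of 36 genes higher and 4 lower in Ctrl at a median of 0.14, and the difference was positive in 18 and negative in 7. The Ctrl value of Cpt1a was 0.14 (adjusted p = 0.00212, difference 1.19, adjusted p = 9.34e-19). Among cholesterol synthesis genes the difference was negative in 18 of 24 and positive in 2. Scd1 rose in Ctrl, from 341, 343 and 331 FPKM to 579, 548 and 582, where it fell in SD, and the difference was -1.99 (adjusted p = 2.74e-29).

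Among 28 interferon genes the difference was negative in 20 and positive in 2, against 23.9% and 29.6% of all genes tested. Gbp2 was not called in Ctrl (0.09, adjusted p = 0.179), with a difference of -1.11 (adjusted p = 2.22e-13). Tnfsf10 stood at 32.8, 34.9 and 34.7 FPKM at Ctrl ZT16 and 34.7, 34.2 and 35.7 at Ctrl ZT20, and its difference was -1.93 (adjusted p = 1.78e-23). Of 29 matrix genes 21 had a negative difference and 5 a positive one. Wisp2 rose in Ctrl, from 31.8, 27.6 and 30.0 FPKM to 44.0, 52.5 and 46.3.

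Other changes were seen in both conditions. Arntl changed by 0.93 in Ctrl, and its steps did not differ at the threshold (difference -0.19, adjusted p = 0.0573). The same held for Per2 (-0.64 in Ctrl, difference -0.14, adjusted p = 0.151) and Per3 (-0.55 in Ctrl, difference -0.10, adjusted p = 0.22). Per1 rose in Ctrl too, by 0.59, but less (difference 1.58, adjusted p = 2.88e-18). Nr1d2 fell in Ctrl (-1.38, adjusted p = 1.79e-18) and Nfil3 was not called (0.12, adjusted p = 0.234), and both differed between the steps, by 1.21 (adjusted p = 3.94e-13) and 0.82 (adjusted p = 6.86e-07). Hspa8 fell in both conditions, in Ctrl from 494, 511 and 473 FPKM to 146, 133 and 144. Cirbp rose in both, by 1.40 in Ctrl, while the value of Rbm3 there was -0.11 (adjusted p = 0.00818). Egr1 rose in Ctrl, from 9.65, 11.2 and 10.8 FPKM to 93.3, 76.6 and 88.3, where it fell in SD (difference -3.61, adjusted p = 1.35e-29).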

How the data were processed

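The deposited values were FPKM per gene made by the authors, with a gene length for each gene. HISAT2 2.0.5, featureCounts 1.5.0-p3 and the build mm10 are named per the submitters' processing notes. Libraries came from 1.5 µg of TRIzol-extracted total RNA with the NEBNext Ultra RNA kit, per the labels' protocols. How strand and multiply mapped reads were treated is not given in the sources used here. FPKM times gene length fell on whole multiples of 1 step per library, within 0.1 of a read, for 99.3% to 100% of values, so reads were recovered. They gave 25285525 to 29790252 reads per library over the 42 libraries, which limits the precision of genes with few reads. For 27 genes whose symbol read as a date, the symbol was taken from the gene ID.

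Changes were tested with limma 3.58.1 (lmFit, eBayes with trend) under R 4.3.3, on log2(FPKM + 1). The fit held 14 group means, with 28 residual degrees of freedom. The contrasts were SD ZT20 minus SD ZT16, Ctrl ZT20 minus Ctrl ZT16 and their difference, two-sided, with Benjamini-Hochberg adjustment over the 16429 genes. The procedure was checked on simulated data. Alternatives were a pseudocount of 0.1, other filters on low values, equal total reads, limma voom on the recovered reads, a block for the replicate number, array weights, fewer libraries in the fit and each library left out in turn.

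The genes and gene lists described were chosen with earlier results of these data known, and lists are given by counts and medians without a test. The rule for named genes took the 12 largest called rises and the 12 largest called falls with a mean of at least 2 FPKM and no overlap of the groups. It also took each gene of the clock lists, the 3 called members of each other list with the largest change in each direction, the defining cell markers, and the 6 largest positive and 6 largest negative differences of the steps. The choices by size skipped predicted genes, pseudogenes and segments of antigen receptor genes. Some genes that the rule took are not reported here. Motifs were searched with Python 3.11.15 and pandas 2.3.3 in RefSeq promoter windows of 250 bases (GRCm38.p6, 32851 windows of 27025 genes). Plots were drawn with matplotlib 3.10.9.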

Additional observations from a re-analysis of the deposited data

Results flagged for a closer look

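The step from ZT16 to ZT20 differed between SD and Ctrl lungs, by the test of the difference in limma, in 8782 genes. The values below are log2 differences of the steps, SD minus Ctrl, all past an adjusted p of 0.05, and each uses the libraries of all 4 groups. Predicted genes, pseudogenes and segments of antigen receptor genes were skipped, and over all genes tested the highest value was 9.34.

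Of the genes kept, the 6 most positive values were 7.75 in Reg3g, an antimicrobial lectin gene, 6.72 in Jchain, 6.41 in Scgb3a1, 5.15 in Tff2, a trefoil peptide of mucous cells, 5.13 in Bpifb1, an airway secreted protein gene, and 4.74 in CR974586.5. Their means at Ctrl ZT16 and Ctrl ZT20 were 134 and 0.691 FPKM in Reg3g, 452 and 4.94 in Jchain, and 123 and 7.06 in Tff2. Bpifb1 stood at 42.3 and 2.16 FPKM, and CR974586.5 at 17.8 and 0.947. In SD the means went from 2.51 to 6.996 FPKM in Tff2 and from 1.23 to 4.71 in Bpifb1.

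Of the genes kept, the 6 most negative values were -3.98 in Mir143 and -3.32 in Mir145a, neighbouring microRNA genes of smooth muscle, -3.61 in Egr1, -2.84 in Wisp2, -2.71 in Upk3b, a mesothelial marker, and -2.69 in Neat1. Mir143 went from a mean of 0.757 to 32.1 FPKM in Ctrl and from 14.4 to 19.5 in SD. Its SD libraries overlapped, at 12.1 to 18.1 FPKM at ZT16 and 11.2 to 35.2 at ZT20. Mir145a went from 6.66 to 82.3 FPKM in Ctrl and from 39.0 to 42.7 in SD, where its libraries overlapped too. Upk3b went from 1.83 to 12.3 FPKM in Ctrl and from 36.0 to 25.7 in SD.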

How the results depend on the processing

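Under every alternative run, the counts of genes called stayed within 1.5 times the reported ones, and the SD step ran from 8436 to 10141 genes. Leaving out 1 library gave 8436 to 8769 genes for the SD step, 7935 to 8136 for the Ctrl step, 8380 to 8593 for their difference and 249 to 254 for the named genes. With only the libraries of the groups compared, the Ctrl step had 6081 genes called. Of the 272 named genes 260 were called, and 241 kept their call, whether higher, lower or none, in all alternatives run. With equal total reads the median change of all genes in the SD step shifted by -0.10 on the log2 scale. Among named genes called in the reported fit or in this one (others were not counted), 2 changed sign: Msln, to -0.11 (adjusted p = 0.00887), and Srebf2, to -0.0074 (adjusted p = 0.885). The rescaling itself, which multiplies all values of a library by 1 factor, moved them. Limma voom on the recovered reads called 8981 genes in the SD step, 8893 of them among the 9229. Equal total reads gave 9278 genes for the SD step, of which only 7523 were among the 9229. For the difference of the steps it gave 8973 genes, 7277 of them among the 8782. The replicate numbers did not pair the SD samples. Same-numbered SD libraries had correlations of deviations of -0.083, -0.12 and -0.096 across 8545 genes, and in SD none correlated best with its own number. In Ctrl these were 0.065, 0.082 and 0.15, of which 1 was over 0.1, and each library correlated best with its own number, which is a hint from the data and not from the design. With the replicate block the SD step had 9211 genes called, the Ctrl step 8646, their difference 8756 and the named genes 261.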
